A study of Mus musculus with 8 samples.

Results

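The potassium channel gene family was examined as all genes whose symbol starts with Kcn and that were read by a probe set annotated with exactly 1 symbol. There were 92 such genes among 19938 genes measured, and each was read by its probe set with the highest mean over the 8 arrays. Of these, 23 had a mean log2 level of 7 or more and are called heart-expressed here, and 69 lay under that level. The members were 88 genes of channel pores and subunits, the opposite-strand transcripts Kcnd3os, Kcnmb4os1 and Kcnmb4os2, and Kcnrg, a regulator that is not a channel itself. A probe set's brightness depends on its probes as well as on the RNA, so differences between groups were taken within a gene only. The level of 7, and any order of genes by level, does compare probe sets and is a rough guide.

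Potassium channels let potassium leave the heart muscle cell, which ends the action potential and holds the resting voltage. Several families share this work. Voltage-gated channels open on depolarization and repolarize the cell, inward rectifiers set the resting potential or respond to acetylcholine and to the energy state, and two-pore channels carry a steady leak. Accessory subunits such as the Kcne and Kcnip proteins assemble with the pore proteins and alter their gating or their delivery to the membrane. In mice, ventricular repolarization rests mainly on fast transient outward and other rapidly activating voltage-gated currents, and lowered expression of several channel genes is a known feature of cardiac hypertrophy.

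The hearts came from mice of 9 weeks on a C57Bl6 background, with a single array for each heart. WT mice were left untreated (arrays 1 and 2) or received PE (arrays 3 and 4), and mice homozygous for GATA4 S105A were likewise untreated (arrays 5 and 6) or given PE (arrays 7 and 8). GATA4 is a transcription factor of heart muscle, and S105A replaces a serine of it by alanine, a change that expression arrays do not read. PE, an adrenergic stimulus that the labels spell out as pseudoephedrine, was delivered for 5 days from subcutaneous osmotic pumps at 100 mg per kg per day. The titles call the controls untreated, whereas the protocol names saline. The comparisons asked how the family differed with PE, with genotype, and between genotypes in its difference with PE. The SE of each gene came from 1 estimate of the spread, pooled over all 4 groups. An SE given for 1 genotype or treatment therefore also holds the spread of the other.

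The tissue field names the ventricle and the titles the whole heart. All 9 measured cardiomyocyte markers had means above 7, and the lowest of them was Ryr2 at 12.55. Of 5 atrial markers, 2 lay above 7, and Sln lay at 4.60. Array medians over the genes ran from 6.73 to 6.80. PE array 3 and, less so, PE array 7 stood apart from the other arrays in the fibroblast and macrophage markers given further on, so most averaged PE differences are also given without these 2 arrays.

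Across the family, 0 of 92 genes passed an adjusted p of 0.05 by limma in any of the 7 contrasts. The same rule called 0.00502% of all genes for PE in WT, for PE averaged over genotypes and for genotype averaged over treatments, and 0% for the other 4 contrasts. The gene called for PE was Myh7, the fetal myosin heavy chain gene that marks a stressed ventricle, at 8.29 and 8.52 in WT untreated, 11.33 and 10.89 in WT PE, 8.75 and 8.63 in S105A untreated, and 10.71 and 10.48 in S105A PE (averaged 2.30, SE 0.12, adjusted p = 0.00808). Without array 4, 23 of the 92 passed for PE averaged over genotypes, beside 20.7% of all genes, and without arrays 3 and 7 Kcne1 and Kcnj14 passed, beside 0.687% of all genes. These reduced fits leave 1 array in a PE group, so the spread between animals of that group is not in the estimate. Although 0 of 92 passed with all 8 arrays, most heart-expressed members lay lower with PE. Averaged over genotypes, 19 of 23 had a negative log2 difference, with a median of -0.21, whereas 51.9% of the 9243 genes with a mean of 7 or more were negative, with a median of -0.0087. Differences ran from -1.03 for Kcnv2 to 0.69 for Kcne1, whose untreated mean lay under 7. At an unadjusted p under 0.05, 6 of the 23 were lower (Kcnk3, Kcnj8, Kcnj5, Kcnh2, Kcnd3 and Kcnv2) and 2 higher (Kcne1 and Kcnt2), against 10.9% lower and 13.7% higher among all genes with a mean of 7 or more. In both directions together these were 8 members beside 24.6% of those genes.

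The PE arrays lay entirely below the untreated arrays for 5 of the 23 genes, namely Kcnj3, Kcnk3, Kcnj8, Kcnh2 and Kcnv2, beside 9.26% of all genes with a mean of 7 or more. They lay entirely above for Kcne1 alone, beside 9.77% of those genes. Kcne1 reached the level of 7 only through its PE arrays (untreated mean 6.93, PE mean 7.62). The PE arrays differed in size. Measured against the untreated mean of its own genotype, array 3 was lower for 20 of the 23 members (median -0.32), array 4 for 17 (median -0.13), array 7 for 18 (median -0.24) and array 8 for 15 (median -0.05). Over all genes with a mean of 7 or more, 53.6%, 52.9%, 48.4% and 47.4% were lower in these arrays. Arrays 3 and 4 share their untreated arrays, as do arrays 7 and 8. Array 3 was lower by at least 0.5 for 11 members, array 7 for 5, array 8 for 1 and array 4 for 0, while 15.7%, 3.69%, 0.335% and 0.606% of all genes with a mean of 7 or more were lower by that much. Without arrays 3 and 7 the median of the 23 was -0.08, with 17 negative, beside -0.0048 and 51.7% negative over those genes.

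**Figure D1:**
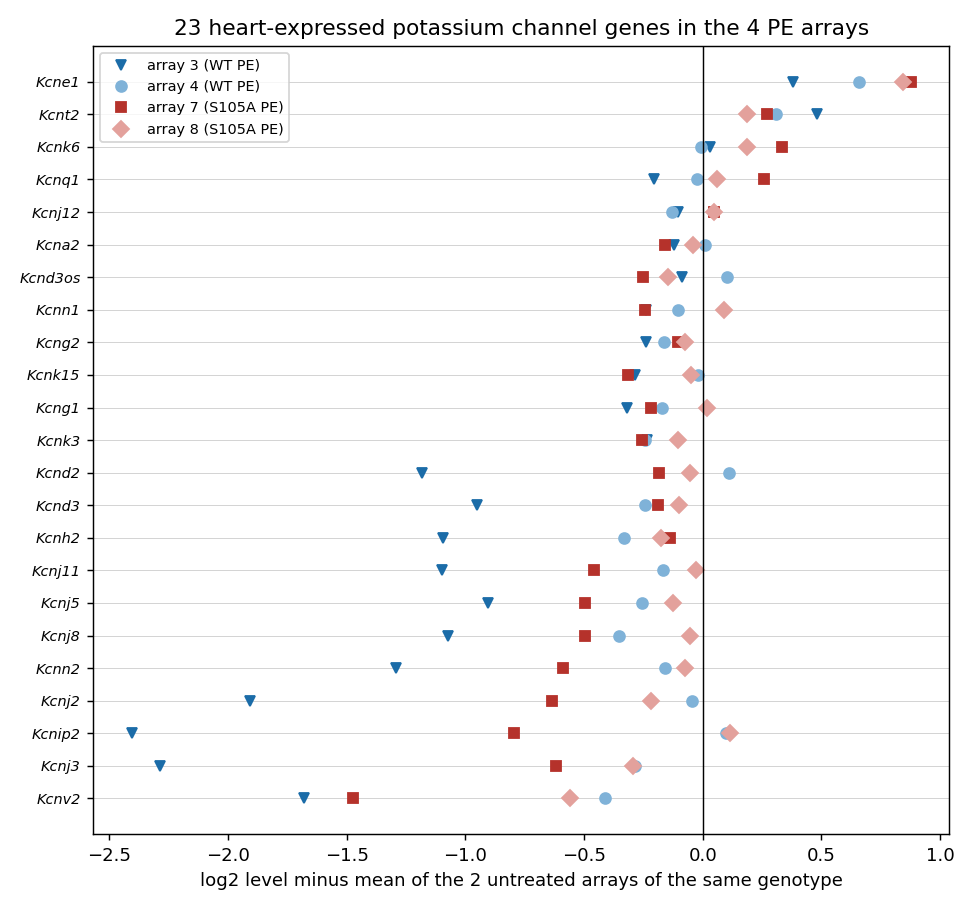
Log2 level of each of the 23 heart-expressed potassium channel genes in the 4 PE arrays, minus the mean of the 2 untreated arrays of the same genotype (x axis, log2 units; 1 row per gene, 1 symbol per array). Array 3 lies farthest to the left for most genes in the lower part, array 7 follows for Kcnv2, Kcnip2 and Kcnj2, and all 4 arrays lie to the right of 0 for Kcne1 and Kcnt2.

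Kcne1 and Kcnq1 encode the channel of the slow delayed rectifier current, in which Kcnq1 forms the pore and Kcne1 is the single-pass accessory subunit. Kcne1, read by probe set 10440989, had log2 levels of 6.87 and 7.04 in WT untreated, 7.33 and 7.61 in WT PE, 6.94 and 6.88 in S105A untreated, and 7.78 and 7.75 in S105A PE. All 4 PE arrays were above all 4 untreated arrays, and array 3 was the lowest of the 4 PE arrays. The averaged difference was 0.69 (SE 0.08, 1.61-fold, limma adjusted p = 0.199), made up of 0.52 (SE 0.12) in WT and 0.86 (SE 0.12) in S105A. Kcne1 was the 1 member whose overall mean reached 7 while its untreated mean did not. Without arrays 3 and 7 its difference was 0.75 (SE 0.08) and passed (limma adjusted p = 0.0166). It also passed without array 4 (adjusted p = 0.00574) and not without array 3 (adjusted p = 0.0538). Leaving out any other single array gave adjusted p values between 0.162 and 0.665. Leaving out an array of a pair removes that pair from the estimated spread.

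Kcnq1 (probe set 10559276) did not share this pattern. Its levels were 9.02 and 9.31 in WT untreated, 8.96 and 9.14 in WT PE, 8.97 and 8.79 in S105A untreated, and 9.14 and 8.93 in S105A PE, so the groups overlapped. The averaged difference of 0.02 (SE 0.10) turned negative when array 1, 4, 6 or 7 was left out. Among the other Kcne subunit genes, Kcne4, which modulates Kcnq1 and other voltage-gated channels, had a mean under 7 and levels of 6.25 and 5.93, 7.07 and 6.66, 6.36 and 6.54, and 6.99 and 6.57 in the groups in the same order. Its PE arrays were all above its untreated arrays, the closest pair being array 8 and array 6, and the averaged difference was 0.55 (SE 0.14, limma adjusted p = 0.275), or 0.34 (SE 0.11) without arrays 3 and 7. Kcne2, Kcne3 and Kcne1l differed by between -0.04 and 0.02.

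**Figure D2:**
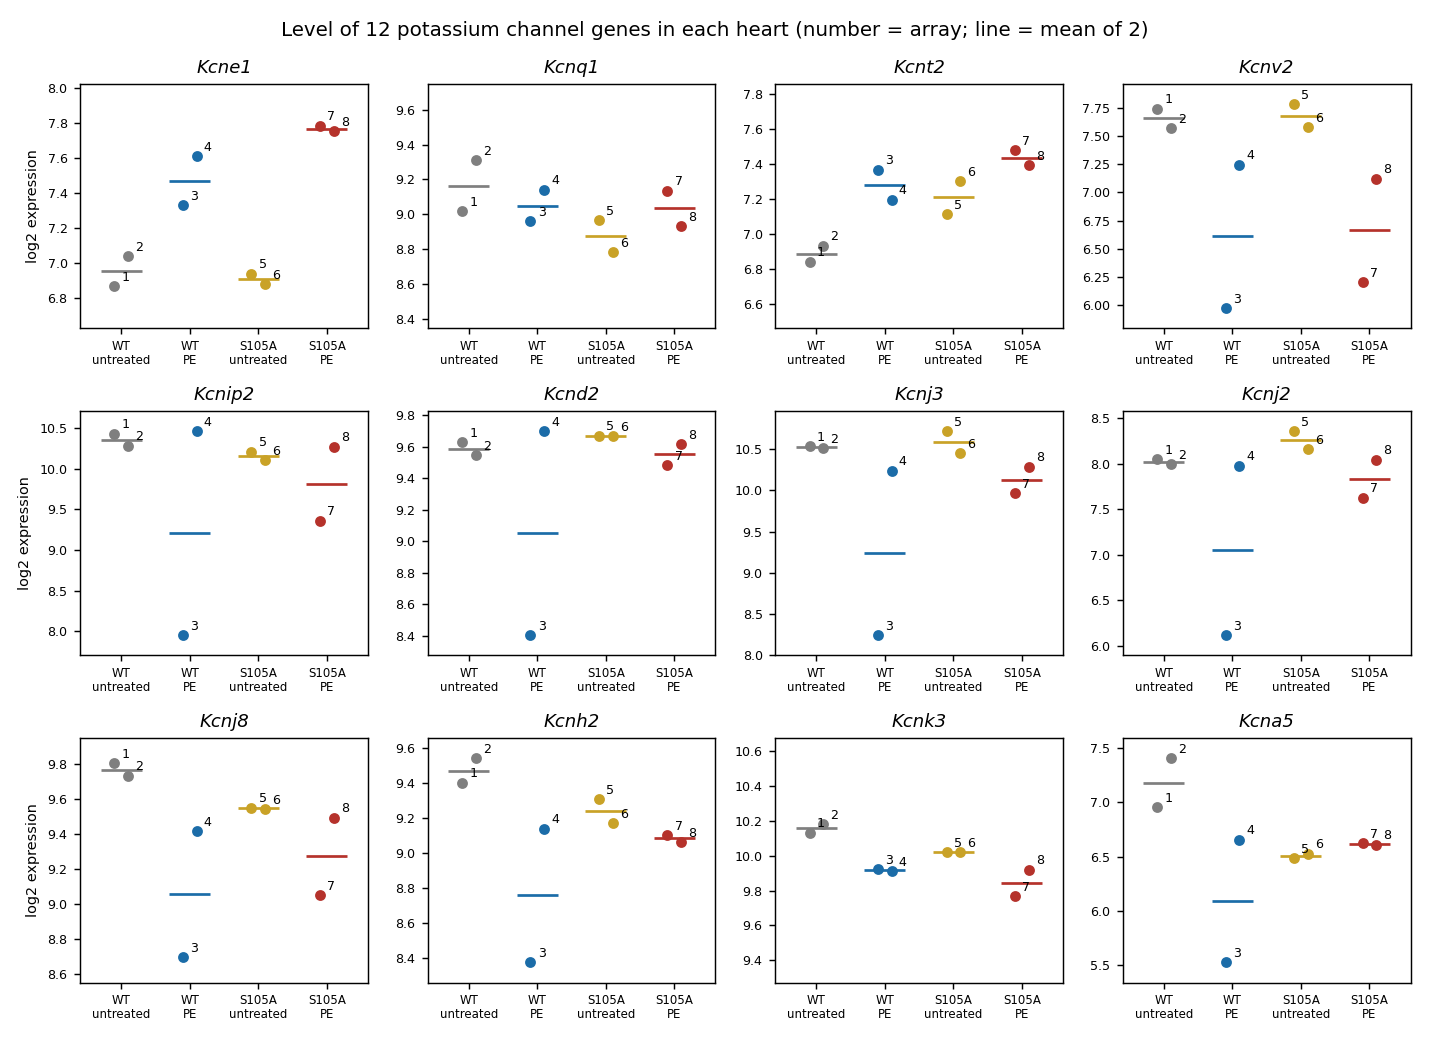
Log2 expression of 12 potassium channel genes (y axis, a separate range in each panel) in the 4 groups (x axis), with 1 numbered point per array and a line at the mean of 2. Kcne1 is higher in all 4 PE arrays, Kcnv2 lower in all 4, and Kcnip2, Kcnd2 and Kcnj2 are low mainly in array 3.

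The fast transient outward current is carried by pores of Kcnd2 and Kcnd3 with the calcium-binding accessory subunit encoded by Kcnip2. Kcnip2 (probe set 10468113) had levels of 10.43 and 10.28 in WT untreated, 7.95 and 10.46 in WT PE, 10.21 and 10.10 in S105A untreated, and 9.36 and 10.27 in S105A PE. Arrays 3 and 7 were low, whereas array 4 was above and array 8 within the untreated range. The averaged difference was -0.75 (SE 0.52, limma adjusted p = 0.470), and without arrays 3 and 7 it was 0.11 (SE 0.08), so the sign turned. Kcnd2 (probe set 10536611) had 9.63 and 9.55, 8.41 and 9.70, 9.67 and 9.67, and 9.48 and 9.62 in the groups in that order. Array 3 alone was clearly low, and the averaged difference of -0.33 (SE 0.26) became 0.03 (SE 0.06) without arrays 3 and 7. Kcnd3 (probe set 10495083) had 8.03 and 8.11, 7.12 and 7.83, 7.97 and 7.81, and 7.70 and 7.79, with an averaged difference of -0.37 (SE 0.15, limma adjusted p = 0.294) and of -0.17 (SE 0.08) without arrays 3 and 7. The opposite-strand transcript Kcnd3os differed by -0.10 (SE 0.07), or -0.02 (SE 0.07) without arrays 3 and 7. Whether its probes are free of Kcnd3 signal was not tested.

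Other voltage-gated members carry the sustained currents or act as silent partners. Kcnv2 encodes a subunit that forms no channel alone and assembles with other voltage-gated pore subunits. It was read by probe set 10462303 at 7.74 and 7.57 in WT untreated, 5.98 and 7.25 in WT PE, 7.78 and 7.58 in S105A untreated, and 6.21 and 7.12 in S105A PE. Every PE array was below every untreated array, arrays 3 and 7 far below. Kcnv2 had the most negative difference of the family, -1.03 (SE 0.31, 0.489-fold, limma adjusted p = 0.277), nearly the same in WT (-1.05, SE 0.44) and S105A (-1.02, SE 0.44), and -0.49 (SE 0.09, adjusted p = 0.0982) without arrays 3 and 7. The silent subunit genes Kcng1 and Kcng2 differed by -0.17 (SE 0.08) and -0.15 (SE 0.06), and without arrays 3 and 7 by -0.08 (SE 0.07) and -0.12 (SE 0.07).

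Kcnh2, the pore gene of the rapid delayed rectifier (probe set 10528548), was at 9.40 and 9.54 in WT untreated, 8.37 and 9.14 in WT PE, 9.31 and 9.17 in S105A untreated, and 9.10 and 9.06 in S105A PE. The PE arrays were all below the untreated arrays, by little in S105A. The difference was -0.71 (SE 0.23) in WT and -0.16 (SE 0.23) in S105A, averaging -0.44 (SE 0.16, limma adjusted p = 0.285), and -0.25 (SE 0.08) without arrays 3 and 7. Kcna5, a pore gene of the ultrarapid current, had a mean of 6.60, with levels of 6.95 and 7.41, 5.52 and 6.66, 6.49 and 6.53, and 6.62 and 6.61. Its WT untreated arrays were the highest and array 3 the lowest, while the S105A arrays lay between 6.49 and 6.62. Its averaged difference was -0.49 (SE 0.24), and -0.21 (SE 0.13) without arrays 3 and 7. Kcna4, of the slow transient outward current, had a mean of 5.57 and differed by 0.21 (SE 0.13), or 0.07 (SE 0.12) without arrays 3 and 7, with overlapping groups. Kcna2 differed by -0.08 (SE 0.07), or -0.02 (SE 0.07) without arrays 3 and 7, and its second probe set, at a mean of 5.88, by -0.15 (SE 0.09).

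GATA4 binds the letters GATA flanked by A or T before and A or G after, and promoters of the heart-expressed members were searched for them because the mutant protein is GATA4. The 250 bases before the annotated start were taken from RefSeq promoters of GRCm38.p6, which held 15 promoters of 14 of the 23 genes. AGATAA and AGATAG and TGATAA and TGATAG were searched on both strands, counting matches that did not overlap. They were in 3 of the 15 promoters and in 26.5% of all 32851 promoters of that length. The 3 genes with a match, the inward rectifier genes Kcnj2 and Kcnj8 and the gene Kcnk15, lay lower in array 3, as did 20 of the 23 members in all. All 3 matching promoters are shown. Each is written on the gene's strand with the match in capitals, at chr11:111065914-111066163 (plus strand) for Kcnj2, chr6:142571615-142571864 (minus strand) for Kcnj8 and chr2:163853500-163853749 (plus strand) for Kcnk15.
Kcnj2: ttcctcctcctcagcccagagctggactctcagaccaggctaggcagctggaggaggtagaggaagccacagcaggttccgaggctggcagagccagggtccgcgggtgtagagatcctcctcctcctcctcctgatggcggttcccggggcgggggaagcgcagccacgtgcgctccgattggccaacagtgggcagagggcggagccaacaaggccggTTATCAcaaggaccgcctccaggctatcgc
Kcnj8: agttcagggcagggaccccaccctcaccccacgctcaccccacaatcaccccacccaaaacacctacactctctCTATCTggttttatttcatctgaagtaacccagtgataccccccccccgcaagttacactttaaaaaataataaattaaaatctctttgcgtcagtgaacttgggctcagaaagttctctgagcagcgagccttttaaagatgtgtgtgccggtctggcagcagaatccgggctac
Kcnk15: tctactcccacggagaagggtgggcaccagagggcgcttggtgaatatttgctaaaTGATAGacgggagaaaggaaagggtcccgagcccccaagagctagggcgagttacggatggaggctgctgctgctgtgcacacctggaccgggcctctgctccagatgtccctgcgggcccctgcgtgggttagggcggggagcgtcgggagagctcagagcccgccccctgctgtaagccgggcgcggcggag
The match began 30 bases before the start in Kcnj2, 176 in Kcnj8 and 194 in Kcnk15. With PE, S105A minus WT was 0.79 (SE 0.53) for Kcnj2, 0.22 (SE 0.24) for Kcnj8 and 0.06 (SE 0.13) for Kcnk15. The median over the 23 was 0.16, and 19 of them were positive. Without PE, S105A minus WT was 0.24 (SE 0.53) for Kcnj2, -0.22 (SE 0.24) for Kcnj8 and 0.09 (SE 0.13) for Kcnk15, beside a median of -0.04. The S105A PE means of these genes, 7.84, 9.27 and 7.26, lay above WT PE array 3 (6.12, 8.69 and 7.07). They lay below WT PE array 4 (7.98, 9.42 and 7.34). A part of the match in these differences was not tested.

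The inward rectifiers formed the largest group of heart-expressed members, with 6 of 15 measured Kcnj genes. Kcnj2, Kcnj12 and Kcnj14 encode pores of the background current that stabilizes the resting potential. Kcnj2 (probe set 10382321) was at 8.05 and 8.00 in WT untreated, 6.12 and 7.98 in WT PE, 8.36 and 8.16 in S105A untreated, and 7.63 and 8.04 in S105A PE. Its averaged difference was -0.70 (SE 0.37, limma adjusted p = 0.362), and -0.13 (SE 0.08) without arrays 3 and 7. Kcnj12, in contrast, stayed between 7.59 and 7.78 on all 8 arrays and differed by -0.03 (SE 0.06). Kcnj14, with a mean of 5.56, was at 5.72 and 5.87, 5.50 and 4.89, 5.93 and 5.76, and 5.34 and 5.49, lowest in array 4 rather than array 3. Its PE arrays were all below its untreated arrays, with a difference of -0.52 (SE 0.14, limma adjusted p = 0.275). Without arrays 3 and 7, which leaves 1 array in each PE group, the difference was -0.63.

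Kcnj3 and Kcnj5 encode the 2 pore subunits of the channel opened by G protein subunits after muscarinic stimulation. Kcnj3 (probe set 10472155) was at 10.54 and 10.51 in WT untreated, 8.24 and 10.24 in WT PE, 10.72 and 10.45 in S105A untreated, and 9.97 and 10.29 in S105A PE. All PE arrays were below all untreated arrays, with array 3 lower than array 4 by 2.00 log2 units. The difference of -0.87 (SE 0.40, limma adjusted p = 0.316) was -0.29 (SE 0.09) without arrays 3 and 7. Kcnj5 (probe set 10592061) was at 9.45 and 9.55, 8.60 and 9.24, 9.73 and 9.39, and 9.06 and 9.44. Arrays 8 and 6 overlapped, and the difference of -0.45 (SE 0.17) was -0.19 (SE 0.11) without arrays 3 and 7. Both subunit genes of this channel had negative differences.

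Kcnj8 and Kcnj11 encode the pores of channels that close at high ATP, and Abcc8 and Abcc9 their regulatory sulfonylurea receptors. Kcnj8 (probe set 10549102), which is also abundant in pericytes, was at 9.80 and 9.73 in WT untreated, 8.69 and 9.42 in WT PE, 9.55 and 9.54 in S105A untreated, and 9.05 and 9.49 in S105A PE. Each PE array was below each untreated array, array 8 only just, and the difference was -0.49 (SE 0.17, limma adjusted p = 0.283), or -0.20 (SE 0.06) without arrays 3 and 7. Kcnj11 (probe set 10563480) was at 9.50 and 9.50, 8.40 and 9.33, 9.51 and 9.37, and 8.98 and 9.41, a difference of -0.44 (SE 0.21) that was -0.10 (SE 0.07) without arrays 3 and 7. Abcc9 differed by -0.73 (SE 0.33), or -0.17 (SE 0.08) without arrays 3 and 7, and was lowest in array 3 at 9.77, beside 11.33 to 11.54 in the untreated arrays. Abcc8 differed by -0.06 (SE 0.10), and by 0.08 (SE 0.07) without them. In bulk hearts, fewer cells of a type and less RNA per cell cannot be told apart.

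Among the two-pore, calcium-activated and sodium-activated members, Kcnk3, an acid-sensitive leak channel gene (probe set 10520506), was at 10.13 and 10.18 in WT untreated, 9.92 and 9.91 in WT PE, 10.02 and 10.02 in S105A untreated, and 9.77 and 9.92 in S105A PE. The groups were narrow, the PE arrays were all below the untreated arrays, and array 3 did not stand apart from array 4. The difference was -0.21 (SE 0.06, limma adjusted p = 0.275), and -0.17 (SE 0.06) without arrays 3 and 7, where the adjusted p was 0.372. Kcnk6 differed by 0.14 (SE 0.06) and Kcnk15 by -0.17 (SE 0.09), and without arrays 3 and 7 by 0.09 (SE 0.06) and -0.04 (SE 0.06). Kcnt2, a sodium-activated channel gene (probe set 10350438), was at 6.84 and 6.93, 7.37 and 7.20, 7.12 and 7.30, and 7.48 and 7.40. It was higher with PE within each genotype, by 0.39 (SE 0.10) in WT and 0.23 (SE 0.10) in S105A (averaged 0.31, SE 0.07, limma adjusted p = 0.275), although S105A untreated array 6 lay above WT PE array 4. Kcnn2, of the small-conductance calcium-activated channels, was at 7.23 and 7.56, 6.11 and 7.24, 7.41 and 7.43, and 6.83 and 7.34, a difference of -0.53 (SE 0.25) that was -0.12 (SE 0.10) without arrays 3 and 7. Kcnn1 differed by -0.12 (SE 0.09), and by -0.01 (SE 0.07) without them.

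**Figure D3:**
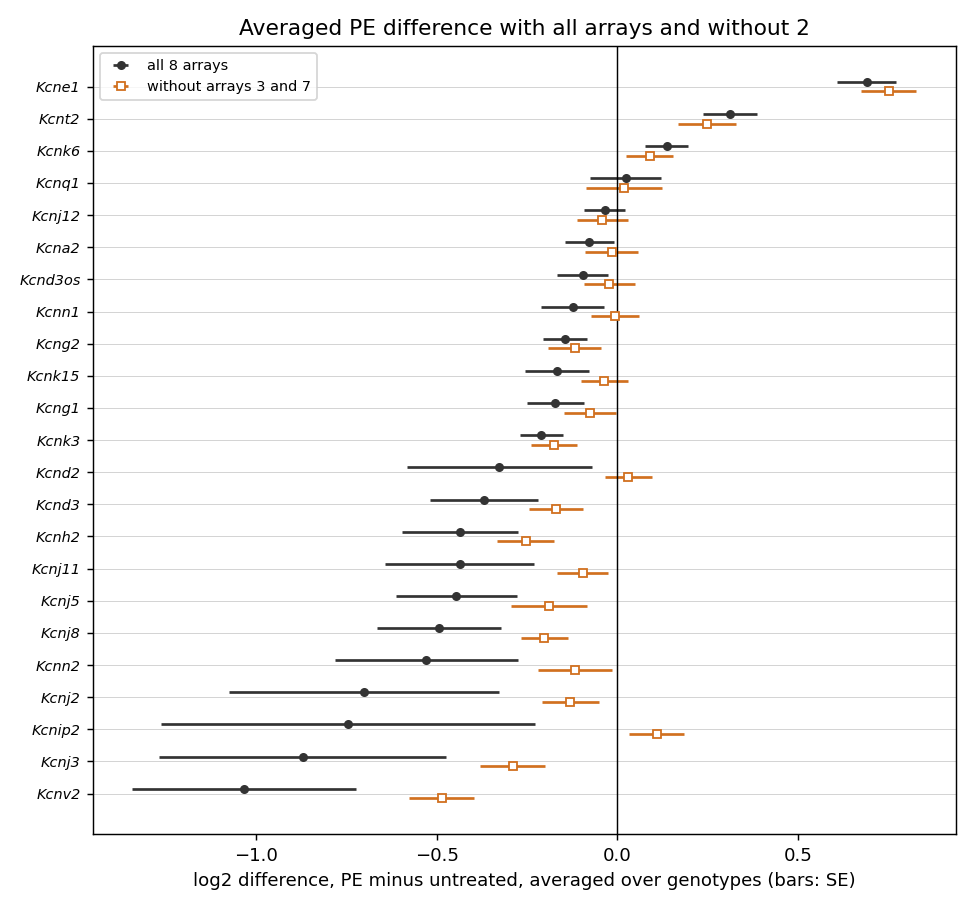
Log2 difference, PE minus untreated, averaged over genotypes (x axis; bars are the SE from limma) for the 23 heart-expressed members (rows), with all 8 arrays (filled circles) and without arrays 3 and 7 (open squares). Kcne1, Kcnt2 and Kcnk3 keep about the same value, while Kcnip2 and Kcnd2 move from -0.75 and -0.33 to 0.11 and 0.03.

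The level of 7 fell within a run of similar members. Kcnv2 (7.15), Kcnn2 (7.14) and Kcnn1 (7.01) lay just inside it and Kcnmb1 (6.99), Kcnip3 (6.96) and Kcna3 (6.81) just outside. Kcnv2, Kcnn2 and Kcnn1 had PE means under 7, and Kcnmb1 and Kcnip3 untreated means of at least 7. Among the 69 lower members, 47 (68.1%) had negative averaged differences, with a median of -0.05. Over all 19938 genes, whatever their level, 56.0% were negative, with a median of -0.017. Of the 69, 7 had an unadjusted p under 0.05, beside 9.95% of all genes with a mean under 7. These were Kcnj14, Kcne4, Kcna1, Kcnn3, Kcnn4, Kcnj1 and Kcng3, from -0.52 to 0.55, of which all but Kcnj14 and Kcne4 are named after their values were seen. Kcnj15, an inward rectifier gene singled out after its values were seen, was at 6.13 and 6.00 in WT untreated, 8.06 and 6.21 in WT PE, 6.15 and 6.15 in S105A untreated, and 6.73 and 6.21 in S105A PE. It was highest in arrays 3 and 7, and its averaged difference of 0.70 (SE 0.37) was 0.11 (SE 0.07) without them.

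In the separate genotypes, WT had 19 of 23 heart-expressed members with a negative PE difference (median -0.24, from -1.28 for Kcnj3 to 0.52 for Kcne1), beside 53.8% of all genes with a mean of 7 or more. S105A had 18 (median -0.16, from -1.02 for Kcnv2 to 0.86 for Kcne1), beside 48.6% of those genes. At an unadjusted p under 0.05 there were 8 members in WT, the same genes as in the average, beside 17.1% of all genes with a mean of 7 or more. In S105A there were 2, Kcnk6 and Kcne1, beside 6.06%. Without arrays 3 and 7 the medians were -0.13 in WT and -0.05 in S105A.

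The PE difference in S105A minus that in WT was positive for 19 of 23 heart-expressed members, with a median of 0.27, where 58.7% of all genes with a mean of 7 or more were positive (median 0.04). By limma 0 of the 23 had an unadjusted p under 0.05 for this interaction, beside 1.88% of those genes. The largest differences were those of Kcnj3 (0.83, SE 0.79), Kcnip2 (0.81, SE 1.03) and Kcnh2 (0.56, SE 0.32), and Kcnv2 had one of 0.03 (SE 0.62). Without arrays 3 and 7 these were -0.01, 0.02, 0.16 and -0.15, and that of Kcnj2 went from 0.55 to -0.17. Kcna5 had the largest of all 92 members, 1.20 (SE 0.48, limma adjusted p = 1.00), or 0.63 (SE 0.25) without arrays 3 and 7. Without arrays 3 and 7, 15 of the 23 were positive and the median was 0.09.

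**Figure D4:**
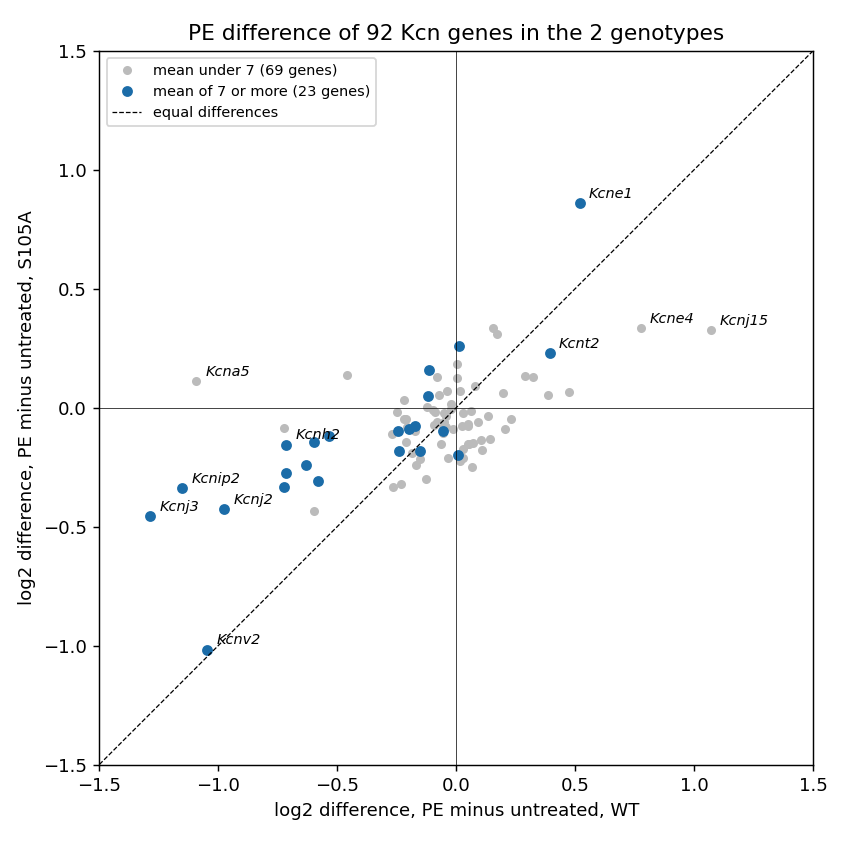
Log2 difference, PE minus untreated, in WT (x axis) and in S105A (y axis) for the 92 potassium channel genes, with the 23 heart-expressed members in blue, the 69 lower members in grey and a dashed line of equal differences. Kcnv2 lies on the line at about -1, Kcnj3, Kcnip2 and Kcnj2 are more negative in WT than in S105A, and Kcne1 is positive in both.

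Genotype was compared without PE, with PE and over both. Without PE, S105A minus WT ran from -0.29 (Kcnq1, SE 0.14) to 0.32 (Kcnt2, SE 0.10) over the 23, with a median of -0.04, and Kcnt2 and Kcnk6 (-0.21, SE 0.09) had an unadjusted p under 0.05, beside 6.19% of all genes with a mean of 7 or more. With PE, 19 of the 23 had positive differences, S105A minus WT (median 0.16), beside 50.1% of all genes with a mean of 7 or more (median 0.0002). This comparison shares arrays 3 and 4 with the PE difference in WT. Array 3 was lower than array 4 for 19 of the 23, beside 52.2% of all genes at that level. For the 3 members beyond 0.5, Kcnj3, Kcnj2 and Kcnip2, S105A PE means were 10.13, 7.84 and 9.82, below array 4 at 10.24, 7.98 and 10.46. Kcne1, at 0.30 (SE 0.12), was the 1 of the 23 with an unadjusted p under 0.05, beside 2.77% of all genes at that level. Averaged over treatments, Kcnt2 (0.24, SE 0.07) and Kcna2 (0.18, SE 0.07) were the 2 members at that threshold, beside 6.79%. Kcnn3, which lay under the level of 7 and is named after its values were seen, was at 6.38 and 6.41 in WT untreated, 6.44 and 6.67 in WT PE, 6.59 and 6.80 in S105A untreated, and 7.18 and 6.87 in S105A PE (averaged 0.39, SE 0.10, limma adjusted p = 0.927).

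Of 36 listed partners of potassium channels without a Kcn symbol (auxiliary subunits, pacemaker channels, scaffolds, regulators and the sodium-potassium pump), 32 were measured. By limma 0 were higher and 0 lower at an adjusted p of 0.05 with PE averaged over genotypes, and 2 were higher and 2 lower at an unadjusted p under 0.05, beside 24.6% of all genes with a mean of 7 or more and 9.95% of those under 7. In all, 21 of the 32 had negative differences, with a median of -0.06, beside 56.0% negative and a median of -0.017 over all genes. Lrrc52, an auxiliary subunit gene of large-conductance channels, was at 6.90 and 7.25 in WT untreated, 6.13 and 6.65 in WT PE, 7.38 and 7.35 in S105A untreated, and 6.37 and 6.68 in S105A PE, below the untreated arrays in every PE array (-0.76, SE 0.14, limma adjusted p = 0.275), and -0.56 (SE 0.11) without arrays 3 and 7. Fhl1, a LIM protein of striated muscle, was 0.92 higher (SE 0.25), with 11.96 in array 3 and 11.51 in array 7 beside 10.25 to 10.51 in the untreated arrays. Without arrays 3 and 7, which leaves 1 array in each PE group, it was 0.49 higher. The other genes at that threshold, named after their values were seen, were the pacemaker channel gene Hcn4 and the actin-binding scaffold gene Flna. They differed by -0.62 (SE 0.22) and 0.54 (SE 0.21), and by -0.37 and 0.17 without arrays 3 and 7. Hcn4 was at 7.79 and 8.58 in WT untreated, 7.01 and 7.47 in WT PE, 7.68 and 7.36 in S105A untreated, and 6.97 and 7.48 in S105A PE. Its PE and untreated arrays overlapped, and untreated array 2 was the highest.

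Markers of other cells differed between the same arrays. For 9 fibroblast markers the mean log2 levels on PE arrays 3, 4, 7 and 8 were 11.3, 10.24, 11 and 10.25 in that order, beside 9.32 to 9.47 in the untreated arrays. For 9 macrophage markers it was 9.60, 8.73, 9.19 and 8.50, beside 7.91 to 8.27, and for 8 smooth muscle and pericyte markers 9.82, 9.19, 9.48 and 9.11, beside 8.97 to 9.12. The 9 cardiomyocyte markers were at 13.22, 13.50, 13.44 and 13.48, beside 13.51 to 13.52, and the 7 endothelial markers at 9.56, 9.90, 9.79 and 9.97, beside 9.90 to 10.15. Averaged over genotypes, all 9 fibroblast and all 9 macrophage markers were higher with PE. The other lists were mixed, with 3 cardiomyocyte markers higher and 6 lower, 1 endothelial marker higher and 6 lower, and 6 smooth muscle and pericyte markers higher and 2 lower. The 23 potassium channel genes were at 7.80, 8.45, 8.25 and 8.48, beside 8.47 to 8.55, so they were lowest in the array where the fibroblast and macrophage markers were highest. Of 6 neuron and Schwann markers and 5 T cell markers, 0 had a mean of 7 or more. Of 5 erythroid markers 2 were measured, with means of 6.45, 6.83, 6.98 and 7.17 on the PE arrays and 7.44 to 7.99 on the untreated arrays. The part of these markers in the potassium channel differences was not tested.

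**Figure D5:**
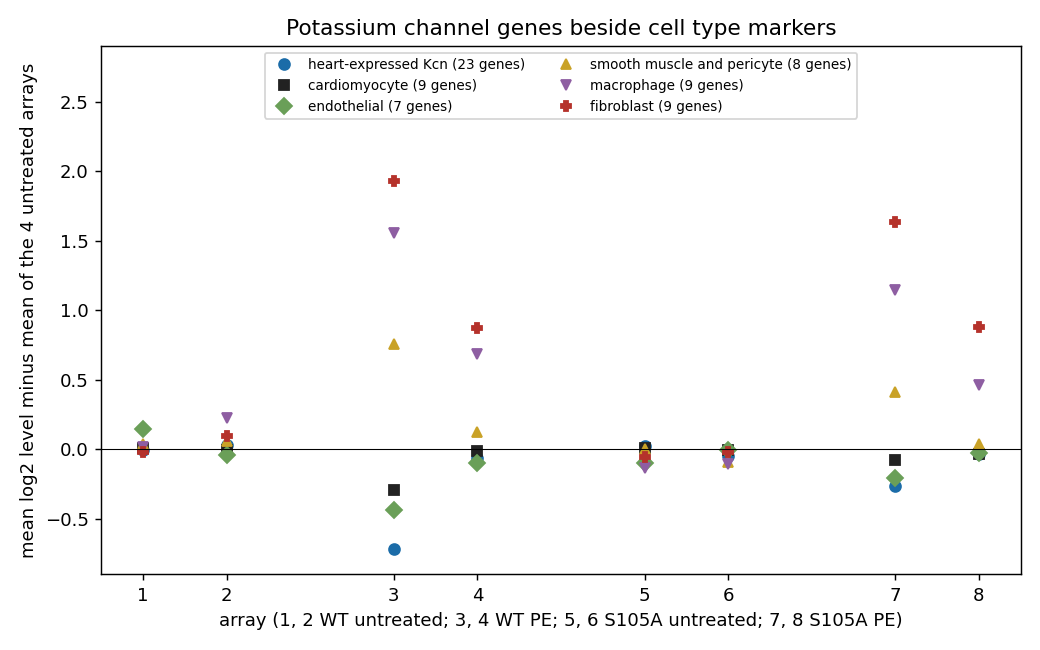
Mean log2 level of the 23 heart-expressed potassium channel genes and of 5 lists of cell type markers in each array (x axis), minus the mean of the 4 untreated arrays (y axis, log2 units). In array 3 and array 7 the fibroblast and macrophage lists are highest and the potassium channel genes lowest.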

How the data were processed

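RNA from 8 hearts was measured on 1 Affymetrix array each. The authors deposited log2 expression values; the submitters' processing notes name RMA for them. The sources used here do not give the version of RMA, the probe set definitions or a genome build. RMA makes array distributions alike, so a change shared by most genes is removed, and no detection calls were used. Of 35557 rows, 21789 were paired with 1 gene symbol by the platform annotation. limma 3.58.1 (R 4.3.3) was fitted to all 19938 genes and 8 arrays with 1 coefficient per group (4 residual degrees of freedom), and p values were adjusted over all genes by the Benjamini-Hochberg method. The fit was tested on simulated data. No coordinates were used except those of RefSeq promoters.

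The members and lists were chosen with earlier results of these data known. Named were the 23 heart-expressed members, with every array where the unadjusted p was under 0.05 for PE averaged or under 0.01 in any contrast; lower members with an unadjusted p under 0.01 and a log2 difference of at least 0.5; 17 measured genes of known heart currents; the 3 members on each side of the level of 7; and partners with an unadjusted p under 0.01 with PE, besides Abcc8 and Abcc9. Exceptions are marked in the text. The number of arrays limits the precision.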

Additional observations from a re-analysis of the deposited data

Results flagged for a closer look

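Kcna5 was lower in both PE arrays than in both untreated arrays of WT (5.52 and 6.66 against 6.95 and 7.41), and higher in both PE arrays than in both untreated arrays of S105A (6.62 and 6.61 against 6.49 and 6.53). The difference between the genotypes in the PE difference was 1.20 (SE 0.48), which did not pass by limma (adjusted p = 1.00). For Kcnj12 both PE arrays were likewise below both untreated arrays of WT (7.62 and 7.59 against 7.78 and 7.67). They were above both of S105A, but only just (7.687 and 7.685 against 7.68 and 7.596). The difference between genotypes was 0.17 (SE 0.11, limma adjusted p = 1.00). Both named genes are given because their PE arrays lay on opposite sides of the untreated arrays in the 2 genotypes. In all, 6 of the 92 members did so (6.52%, the others being Kcnab3, Kcnc1, Kcnc4 and Kcnh7), beside 3.76% of all genes. Of the 23 heart-expressed members it was Kcnj12 alone (4.35%).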

How the results depend on the processing

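The count of potassium channel genes past the adjusted threshold was 0 in every contrast without the 40% of genes with the lowest mean, with array weights, with probe sets averaged, over all rows, with trended and robust variance, after quantile normalization, and, where they apply, with only the compared groups or without an interaction. It moved when array 4 was left out, to 20 for PE in WT (17.8% of all genes), 23 for PE averaged (20.7%), 8 for genotype with PE (3.57%) and 3 for genotype averaged (1.13%), each 0 without any other single array. Without arrays 3 and 7 it was 2 for PE averaged (Kcne1 and Kcnj14) and 0 otherwise. In these fits the spread comes from fewer arrays. Leaving out 1 array gave 5 to 10 heart-expressed members with all PE arrays below the untreated arrays (9 without array 6 and 10 without array 8, where 13.1% and 14.7% of all genes with a mean of 7 or more were) and 1 to 2 above (2 without array 4 or 6, beside 12.2% and 11.8%). The median PE difference was -0.25 to -0.13 without 1 array, -0.076 without arrays 3 and 7, -0.093 with a level of 6 in place of 7 and -0.44 with a level of 8. Of 27 named members, 25 kept their sign without arrays 3 and 7, in a fit that shares its arrays with the full one. Some came near 0, such as Kcnn1 (-0.007), Kcna2 (-0.016) and Kcnd3os (-0.023), and Kcnj2 went from -0.70 to -0.13. Kcne1 (0.69 to 0.75), Kcnj14 (-0.52 to -0.63) and Kcnj12 (-0.035 to -0.042) moved away from 0. Kcnip2 (0.11) and Kcnd2 (0.030) turned, and the cause was not tested. Kcnq1 turned without array 1, 4, 6 or 7, within a range of -0.051 to 0.10. No detection calls were used, so levels near the floor limit the low members. No paired analysis was possible because the labels number the 8 animals singly.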
